A study of Mus musculus with 4 samples.

Results

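MHC class II high macrophages outside the resident pool were studied in mouse hearts. They are macrophages that carry the peptide-presenting MHC class II chains and lack the combined marks of long-lived resident cells. A barcode was taken as such a cell when it had at least 20 UMIs of C1qa, C1qb and C1qc per 10000 UMIs (C1q, a macrophage marker of the heart) and at least 20 of H2-Aa, H2-Ab1 and H2-Eb1 (the class II chains). It also had under 20 of the collagen and matrix genes Col1a2, Dcn and Col3a1, no Cdh5 or Cd79a UMI, fewer than 2 of the resident markers Timd4, Lyve1 and Folr2 detected, and not both of the division genes Mki67 and Top2a. A UMI marks 1 captured RNA molecule. The rule found 4073 cells among 41542 kept barcodes, out of 43074 deposited. The levels of these genes chose the cells, so they are given as a description only, and so is the number of cells found.

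All cells of the heart were loaded on Chromium 3′ v3 droplets in 4 libraries, 1 for each group. Their labels are control, sham, CLP, and sepsis with tragus stimulation at a low level. The last is named CLP plus stimulation in the text, and values given as 4 numbers follow this order. CLP stands for cecal ligation and puncture, an operation that causes sepsis from gut bacteria, and the tragus is a part of the outer ear where mild current reaches a branch of the vagus nerve. The sources used here give no strain, age, time after the operation or number of hearts behind a library.

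MHC class II molecules present peptides from engulfed material to CD4+ T cells. Their chains travel with the invariant chain Cd74, cathepsins trim it, and H2-DM loads the peptide. The coactivator Ciita switches the whole gene group on, often after interferon gamma, through promoter elements bound by RFX and NF-Y. In the heart, class II high macrophages are known as a set partly renewed from Ccr2+ blood monocytes, beside self-renewing residents with Timd4, Lyve1 and Folr2.

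Promoters of class II genes are shown because these genes define the cells or stand around the defining chains in the pathway. In capitals are matches on the gene's own strand to AGNNAC followed directly by NNATG, a core of the X box where RFX binds, and to ATTGG, a core of the Y box where NF-Y binds. Each run covers bases -110 to -31 before the RefSeq start, 5′ to 3′ on the gene's strand, in GRCm38.p6. H2-Eb1 lies at chr17:34305757-34305836 (+), H2-DMb1 at chr17:34153081-34153160 (+), H2-Ob at chr17:34238795-34238874 (+) and H2-Aa at chr17:34287854-34287933 (-).
H2-Eb1: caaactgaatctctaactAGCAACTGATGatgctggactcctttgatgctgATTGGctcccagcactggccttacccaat
H2-DMb1: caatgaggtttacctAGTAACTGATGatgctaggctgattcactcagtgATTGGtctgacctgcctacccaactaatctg
H2-Ob: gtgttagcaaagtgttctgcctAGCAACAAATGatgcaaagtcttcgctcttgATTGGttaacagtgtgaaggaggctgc
H2-Aa: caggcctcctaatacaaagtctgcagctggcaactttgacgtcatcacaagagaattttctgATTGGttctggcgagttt

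The promoters of 14 of 18 class II genes were searched, from 250 bases before to 50 after the start, on both strands, and the capitals leave out matches on the other strand. H2-Ab1, Cd74 and Ciita were among the genes not searched. H2-Eb1, H2-DMb1, H2-Ob and H2-Eb2 held the X motif followed by the Y motif within 10 to 30 bases, and H2-Aa held the Y motif on its own strand and no X motif on either. H2-Eb1 held a further Y motif on the other strand. The same order was found in 0.0700% of 32851 mouse promoters of the same length, the X motif in 3.09% and the Y motif in 37.4%. A match describes letters and not binding.

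The 4 libraries held 1649, 1197, 61 and 1166 of the cells, with medians of 3166, 5357, 6864 and 6796.5 UMIs per cell. Summed over cells this gave 5576465, 6494049, 546914 and 7729985 UMIs, so CLP values rest on the fewest cells and counts. Each group is a single library, so differences lack a replicate check and no test was possible. Ranges in parentheses are 95% intervals from counting alone, without the spread between animals. Gene levels are UMI counts scaled to a total of 1000000 for these cells (CPM), and a gene was called when it differed by at least 2-fold with at least 20 counts over both libraries. Because 3′ tags are counted once per molecule, CPM compares a gene between libraries and not genes of different capture with each other. Some 136, 103, 106 and 74 barcodes recur in another library. They include 9, 14, 1 and 11 of the cells described, none of which was chosen in 2 libraries.

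The label was checked against its markers. Of 12 macrophage markers the rule used 3, the C1q genes. The other 9 had counts in each library, with summed levels of 14061, 14549, 7325 and 5849 CPM. Csf1r, the growth factor receptor of macrophages, lay at 627, 694, 210 and 257 CPM and Adgre1, the gene of F4/80, at 200, 298, 185 and 67.3. In cells with at least 60 UMIs of the matrix genes per 10000 and under 20 of C1q, called fibroblast-rule cells, the same 9 genes summed to 199, 234, 90.6 and 171 CPM. Dendritic cell markers summed to 150, 140, 95.1 and 46.2 CPM over 14 genes. Among them Flt3 lay at 1.79, 1.69, 1.83 and 0.129 CPM and Zbtb46 at 1.79, 1.69, 1.83 and 0.517, while Cd209a, Siglech and Ccl22 had no counts in CLP. Others of the 14 lay higher, with Batf3 at 76.8, 79.3, 38.4 and 3.75 CPM and Wdfy4 at 22.8, 29.9, 18.3 and 10.5. Fibroblast-rule cells had lower sums of the 14 genes, at 57.5, 52.4, 27.9 and 25.3 CPM. Macrophages outside residents under the class II minimum also had lower sums, at 113, 106, 41.4 and 31.1. Resident macrophages had 147 and 135 CPM in control and sham, close to the 150 and 140 of the cells described. In both septic libraries the residents had lower sums than the cells described. The part of dendritic cells among those chosen was not tested. The rule allowed at most 1 of the 3 resident markers, and none was detected in 63.8%, 63.6%, 83.6% and 73.3% of the cells.

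Neutrophil markers, summed over 11 genes, lay at 488 and 501 CPM in control and sham and at 12400 and 2390 CPM in CLP and CLP plus stimulation. In these septic libraries macrophages outside residents under the class II minimum had 7059 and 5528 CPM, and resident macrophages 8882 and 3687. Fibroblast-rule cells had 569 and 4174 CPM, so the sum in CLP plus stimulation was lower in the cells described than in this background. In CLP a single cell held 58.5% of the S100a8 counts and 66.9% of the S100a9 counts. Ly6g, a defining neutrophil gene, was at 0 in control and sham and at 5.49 and 2.98 CPM in the septic libraries. Of the cells, 139, 49, 4 and 77 carried a doublet mark by Scrublet and were kept. Without them the median log2 ratio of the neutrophil markers in CLP plus stimulation over CLP went from -1.87 to 0.69. Removing every cell with a neutrophil marker UMI left 4 cells in CLP, so its part in most CLP values was not tested.

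Class II levels per cell formed different shapes in the 4 libraries. Among all macrophages outside residents, the median was 57.3, 107, 0 and 16.8 class II UMIs per 10000. Cells without any class II UMI made up 28.7%, 17.2%, 64.1% and 17.0%. Control and sham thus held a large group far above the minimum, CLP held mostly cells at 0, and CLP plus stimulation held a continuous spread across the minimum.

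**Figure D1:**
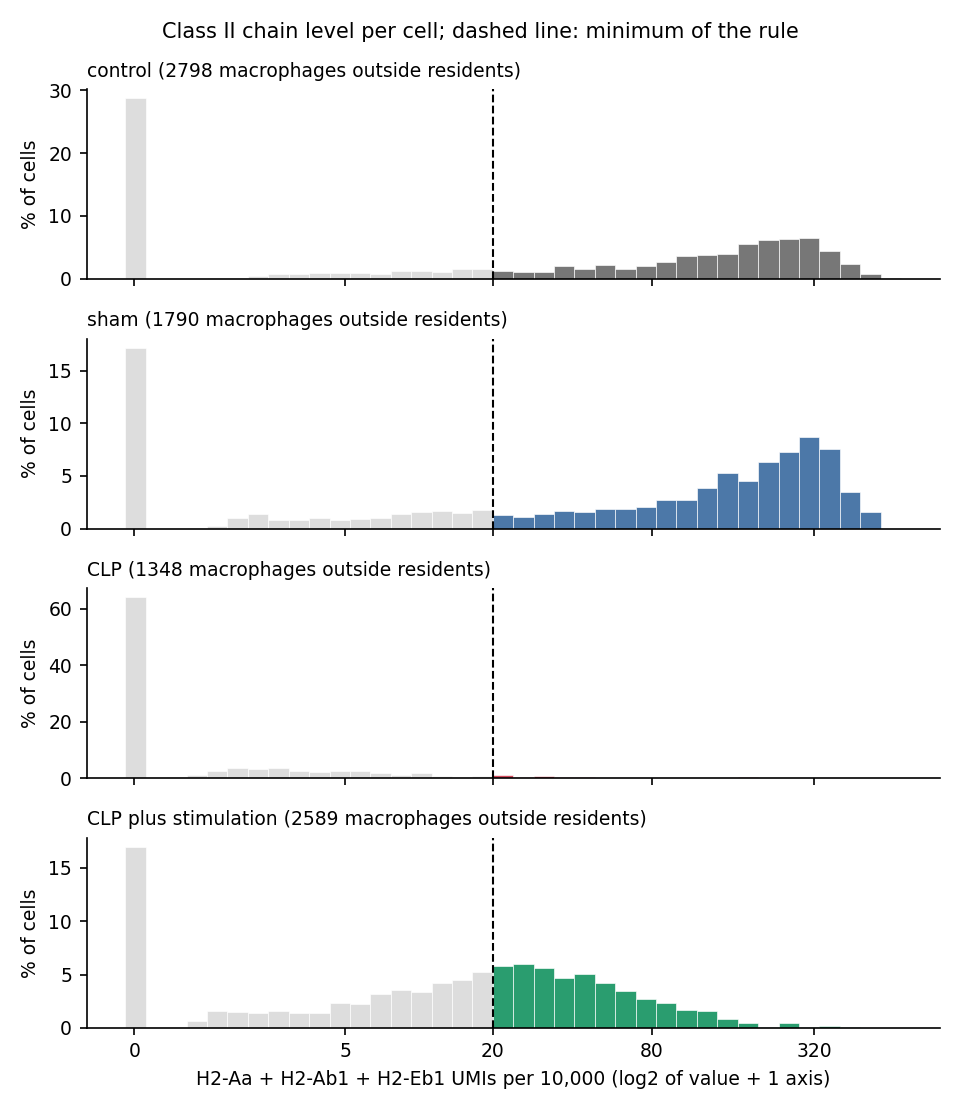
Each panel shows 1 library, with the summed H2-Aa, H2-Ab1 and H2-Eb1 UMIs per 10000 on a log2 (value + 1) axis and the percentage of macrophages outside residents on the other. Coloured bars right of the dashed line (20 per 10000) are the cells described: they peak far above the line in control and sham, are few in CLP and sit against the line in CLP plus stimulation.

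Among the cells chosen, the median class II level was 185, 210, 30.7 and 41.4 per 10000. Levels of 160 or more were found in 56.4%, 60.5%, 11.5% and 3.09% of them. Levels of 20 to 40 held 8.85%, 7.77%, 60.7% and 47.8%. The cells of CLP plus stimulation were about as many as in sham, and their class II levels lay far lower.

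Just inside the minimum, at 20 to 25 per 10000, stood 39, 28, 19 and 184 cells. Just outside it, at 15 to 20, stood 74, 51, 15 and 211. CLP plus stimulation had the most cells on both sides of the minimum. Among fibroblast-rule cells, which should lack class II, 1.22%, 0.804%, 0% and 1.74% reached it. Those cells had medians of 4648.5, 7878, 8766 and 7611 UMIs. They were held under 20 C1q UMIs per 10000, which leaves out most droplets that also held a macrophage. Their share thus describes background mainly from free RNA and cannot measure mixed droplets.

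As a share of macrophages outside residents, the cells made up 58.9% (57.1 to 60.8) in control and 66.9% (64.6 to 69.1) in sham. The share was 4.53% (3.48 to 5.78) in CLP and 45.0% (43.1 to 47.0) in CLP plus stimulation. Of all kept barcodes they were 10.6% (10.1 to 11.1), 13.3% (12.7 to 14.1), 0.732% (0.561 to 0.940) and 13.5% (12.8 to 14.2). CLP lies lowest on both scales, and CLP plus stimulation lies near sham on the scale of all barcodes and below it among macrophages.

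**Figure D2:**
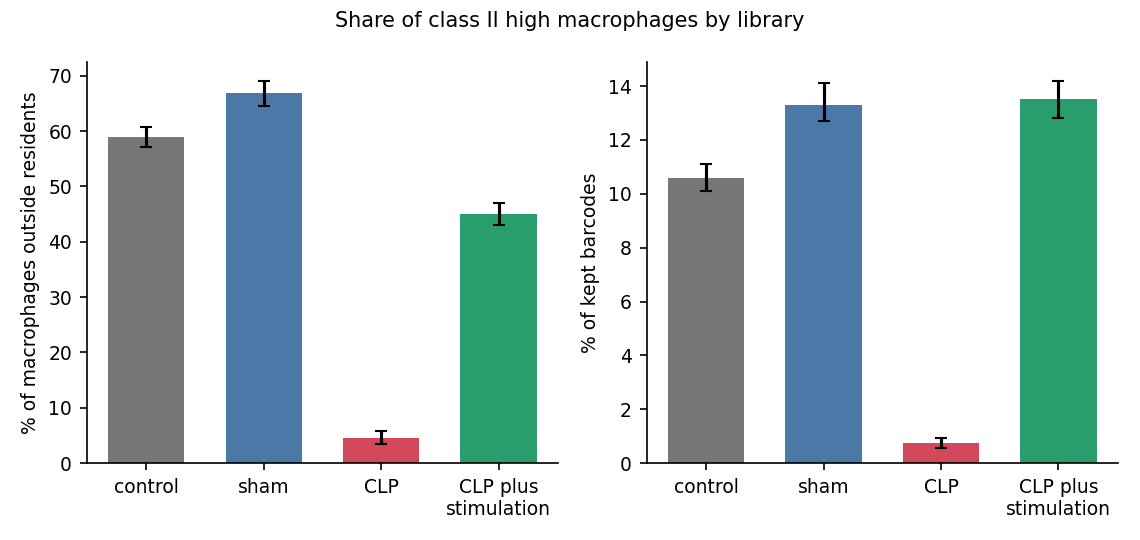
Bars give the share of class II high macrophages among macrophages outside residents (left) and among kept barcodes (right) in percent for the 4 libraries, 1 per group. Error bars are 95% exact binomial (Clopper-Pearson) intervals for counting alone; the CLP bar is the lowest in both panels, at 4.53% and 0.732%.

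The shares moved with the rule. With a class II minimum of 40 per 10000 in place of 20, the shares among macrophages outside residents were 53.7%, 61.7%, 1.78% and 23.5%. The order of the 4 libraries was sham, control, CLP plus stimulation, CLP under both minimums. Resident macrophages of the same libraries passed 20 class II UMIs per 10000 in 40.7%, 39.5%, 3.35% and 31.1% of cells, again lowest in CLP.

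Interferon response genes were higher in sham than in control. Of 11175 genes, 198 (1.77%) were past 2-fold higher in sham and 313 (2.80%) lower. Ifnb1, the interferon beta gene, lay at 3.59 and 114 CPM, with counts in 11 control and 144 sham cells and a log2 ratio of 4.96 (4.35 to 5.71). Ifit1, an interferon-induced RNA sensor, lay at 10 and 55.7 CPM (log2 2.46, 2.06 to 2.91). In both genes sham was the higher.

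The list of type I interferon response genes had 30 of 31 tested members higher in sham, 6 of them past 2-fold, with a median of 0.48 against 0.00 over all genes. Isg15, a ubiquitin-like antiviral protein, lay at 117 and 287 CPM, and Rsad2, the antiviral enzyme viperin, at 20.3 and 59.0. Cxcl10, a T cell attracting chemokine, went from 289 to 1016 CPM, a log2 ratio of 1.81 (1.74 to 1.89). Class I presentation genes leaned the same way, with 18 of 19 higher, a median of 0.37 and only H2-Q7, a class Ib chain, past 2-fold, at 1.01 (0.80 to 1.23). Ccl4 and Ccl12, chemokines for monocytes and lymphocytes, stood at log2 1.29 and 1.17. In cells of 20 to 80 class II UMIs per 10000, a range chosen after seeing the data, H2-Q7 stood at 0.77 and Ccl12 at 0.74, under 2-fold.

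Contractile genes were among the lowest ratios of sham over control. Myl9, a smooth muscle myosin light chain, lay at 60.4 CPM in control and 5.08 in sham, with 39.5% of the control counts in a single cell, and Tpm2, a tropomyosin, at 89.8 and 21.3. Pericyte and smooth muscle markers moved with them, from 530 CPM in control to 68.7 in sham, and lay at 38.4 and 44.0 in the septic libraries. In control fibroblast-rule cells the same markers summed to 1229 CPM. Their part in the control values was not tested. Retnla, a secreted product of macrophages under type 2 cytokines, lay at 481 CPM in control and 157 in sham (log2 -1.62, -1.72 to -1.51), with counts in 190 and 58 cells.

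Class II presentation genes that the rule did not use were lower in both septic libraries for Cd74, the H2-DM pair and Ciita, and higher for the protease Ctsl. Cells were chosen by class II level, so the pathway is not independent of the rule. Of 14 tested members, 5 were past 2-fold lower in CLP than in sham and 1 higher, with a median log2 ratio of -0.42 against -0.07 over all genes. Over all 10004 genes, 17.2% were past 2-fold lower in CLP and 9.16% higher, and 8.64% and 6.23% were so with a counting interval that excluded 0. In CLP plus stimulation over sham, 9 of 14 were past 2-fold lower and 1 higher, with a median of -1.21 against -0.06, where 16.9% of 11207 genes were past 2-fold lower and 9.26% higher. Both comparisons share the sham library. With a class II minimum of 40 per 10000 the median for CLP turned to 0.37. For CLP plus stimulation it was -0.66 with that minimum, -0.17 in cells of 20 to 80 class II UMIs and 0.00 without cells that held markers of other classes. That last setting left only 57 cells in CLP plus stimulation and 318 in sham.

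Cd74, the invariant chain, lay at 18445, 17795, 6703 and 7705 CPM. The log2 ratio was -1.41 (-1.46 to -1.36) for CLP over sham and -1.21 (-1.22 to -1.19) for CLP plus stimulation over sham. Control and sham are the high libraries. Cells with 20 to 80 class II UMIs per 10000 gave -0.52 and -0.11, both under 2-fold. Levels still differed within that range. At 20 to 40 stood 93 cells of sham, 37 of CLP and 557 of CLP plus stimulation, and at 40 to 80 stood 129, 10 and 404. The part of class II level in the Cd74 ratios was not tested.

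H2-DMa, which loads peptides onto class II together with H2-DMb1, lay at 630, 700, 183 and 63.5 CPM. Its log2 ratio was -1.93 (-2.24 to -1.65) for CLP over sham and -3.46 (-3.60 to -3.33) for CLP plus stimulation over sham. H2-DMb1 lay at 401, 487, 196 and 44.1 CPM, with ratios of -1.31 (-1.61 to -1.04) and -3.46 (-3.63 to -3.30). Both were lowest in CLP plus stimulation, below CLP by 1.53 and 2.15 on the log2 scale. In cells of 20 to 80 class II UMIs per 10000 the ratios of CLP plus stimulation over sham were -2.92 and -3.08. For CLP over sham they were -1.34 and, under 2-fold, -0.83.

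Ciita, the class II coactivator, lay at 36.2, 42.5, 7.31 and 1.42 CPM, with counts in 181, 227, 2 and 10 cells. For CLP plus stimulation over sham the log2 ratio was -4.84 (-5.92 to -4.04), and for CLP it was -2.37 (-4.42 to -1.17) from 2 cells. With each cell thinned to 1000 UMIs, Ciita was detected in 3.06%, 4.29%, 1.75% and 0.289% of cells. Fibroblast-rule cells thinned alike showed 0.0930% in control and none among 1708, 2017 and 1250 cells of the other libraries. H2-Ob, which restrains H2-DM and holds both promoter motifs shown above, lay at 12.7, 10.9, 3.66 and 1.03 CPM, with a single cell behind the CLP value.

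Among lysosomal enzymes of the class II route, Ctsl was past 2-fold higher in both septic libraries than in sham. Ctsl, a cathepsin that trims the invariant chain, lay at 459, 359, 872 and 2163 CPM, with log2 ratios of 1.28 (1.14 to 1.42) for CLP over sham and 1.31 (1.18 to 1.44) for CLP plus stimulation over CLP. Ctss, the main invariant chain protease of macrophages, lay at 1189, 1328, 1532 and 2070, without reaching 2-fold in any comparison. Ifi30, a lysosomal thiol reductase for antigens, lay at 265, 283, 444 and 414. The septic libraries are the high ones for Ctsl, Ctss and Ifi30. Lgmn, a protease of the same list, lay at 523, 612, 457 and 590, lower in CLP than in sham, with log2 ratios to sham of -0.42 (-0.61 to -0.24) and -0.05 (-0.11 to 0.01). Among the RFX subunits, Rfxap lay at 36.6, 37.6, 53.0 and 45.1 CPM and Rfx5 at 4.00 CPM or less.

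**Figure D3:**
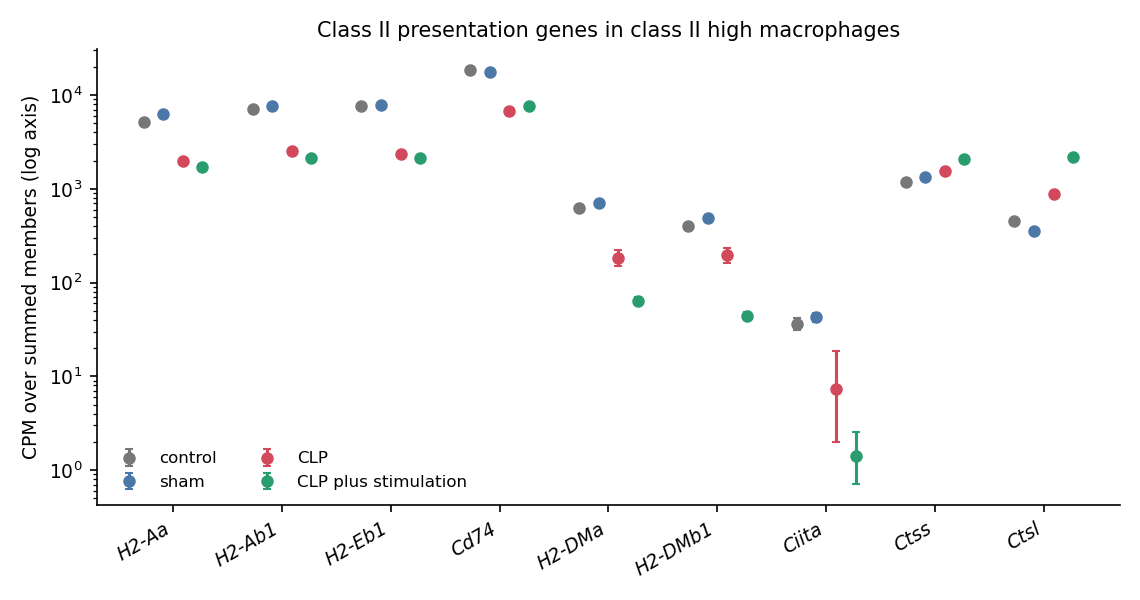
CPM over the summed cells on a log axis for 9 class II genes, 1 point per library, with 95% Poisson intervals for counting. H2-Aa, H2-Ab1 and H2-Eb1 were used to choose the cells; Cd74, H2-DMa, H2-DMb1 and Ciita lie lower in CLP and CLP plus stimulation than in control and sham, and Ctsl lies higher.

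Class I presentation genes, which serve CD8+ T cells, were lower in CLP, with 17 of 19 below sham and a median of -0.57. Past 2-fold lower were 7 of 19, beside 17.2% of all genes. B2m, the shared light chain of class I, lay at 1109, 1870, 1419 and 1387 CPM. H2-T23, a class Ib chain read by NK cells, lay at 172, 324, 113 and 116, and Psmb9, an immunoproteasome subunit, at 92.9, 144, 62.2 and 49.9. Sham was the highest library for all 3 genes. In CLP plus stimulation over sham 17 of 19 were lower, and 2 of the 19 were past 2-fold, a smaller share than the 16.9% of all genes.

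Acute phase genes were among the highest ratios of CLP over sham. Saa3, a serum amyloid made in infection, lay at 1.61, 0, 22227 and 42503 CPM. Against a floor of 3 counts over the sham cells, this was at least 48113-fold higher in CLP and at least 92005-fold higher in CLP plus stimulation. After thinning to 1000 UMIs, 86% (74.2 to 93.7) and 91.2% (89.4 to 92.9) of the septic cells had a Saa3 UMI, against 64.7% and 76.6% of fibroblast-rule cells. Without thinning the shares were 100% in both septic libraries. Class II low macrophages stood at 93.9% and 94.9% after thinning.

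Lcn2, an iron-trapping protein of innate defence, lay at 4.84, 4.00, 1355 and 4359 CPM. Its thinned detection in the cells, 22.8% in CLP and 56.4% in CLP plus stimulation, was below that of fibroblast-rule cells, at 46.4% and 62.4%, so no expression in the cells described is read from it. Mt2, a metallothionein, lay at 78.4, 80.8, 945 and 3140 CPM. Of the genes listed for acute phase and metal response, 12 of 12 tested were higher in CLP than in sham, 9 past 2-fold, with a median of 2.21. For CLP plus stimulation over sham 17 of 17 were higher, 16 past 2-fold, with a median of 4.37, or 3.41 with the 3 genes at 0 counts in 1 library set to their bound. Of all genes, 9.16% were past 2-fold higher in CLP than in sham and 9.26% in CLP plus stimulation.

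Genes of monocyte-derived cells stood higher in CLP and lower again in CLP plus stimulation. In CLP over sham 17 of 20 were higher, 12 past 2-fold against 2 lower, with a median of 1.77, which was 0.89 in cells of 20 to 80 class II UMIs. Among all genes, 9.16% were past 2-fold higher in CLP over sham and 17.2% lower. Over CLP, CLP plus stimulation had 16 of 20 lower, 10 past 2-fold, with a median of -0.89. The share of all genes past 2-fold lower there was 10% of 9741, with 13.3% higher, and 6.07% and 6.27% with a counting interval that excluded 0. Ccr2, the receptor that brings monocytes into tissue, lay at 64.9, 75.8, 119 and 23.3 CPM, and its ratio of CLP plus stimulation over CLP was -2.36 (-2.77 to -1.92). After thinning, 4.35%, 5.63%, 8.77% (2.91 to 19.3) and 1.92% (1.18 to 2.96) of cells had a Ccr2 UMI, against 0.0930%, 0.0585%, 0.0496% and 0.320% of fibroblast-rule cells. Unthinned shares were 10.6%, 13.8%, 34.4% and 6.09%, and CLP plus stimulation was the lowest library by either measure.

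Ms4a4c, a gene of Ly6c monocytes, lay at 14.7, 30.8, 121 and 6.86 CPM, and Fn1, fibronectin, at 37.8, 24.2, 377 and 61.3. Ms4a4c counts came from 28 CLP cells with 10.6% in the top cell. CLP is the highest library for each. Plac8, a monocyte gene, lay at 27.1, 61.3, 208 and 21.1 CPM, but 65.8% of its CLP counts came from a single cell. The 8 monocyte markers summed to 156, 222, 614 and 476 CPM, against 394, 377, 529 and 654 CPM in fibroblast-rule cells, and their part in these values was not tested. Vcan, a matrix proteoglycan, and Thbs1, thrombospondin, were past 2-fold higher in CLP and in CLP plus stimulation than in sham. Vcan counts came from 12, 7 and 50 cells of sham, CLP and CLP plus stimulation, and Thbs1 counts from 51, 11 and 155. In CLP a single cell held 26.7% of the Vcan counts and 19.4% of the Thbs1 counts.

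Genes of settled cardiac macrophages were lower in sepsis. In CLP over sham 12 of 18 tested members of the resident macrophage list were past 2-fold lower and 1 higher, with a median of -1.48, and in CLP plus stimulation over sham 10 of 18 were lower and 2 higher. The shares over all genes were 17.2% lower and 9.16% higher in CLP, and 16.9% and 9.26% in CLP plus stimulation. Igf1, a growth factor for heart muscle, lay at 110, 126, 11.0 and 3.49 CPM. Selenop, a selenium transport protein, lay at 1789, 1804, 124 and 295 CPM. Gpr34, a lysophospholipid receptor, lay at 97.6, 87.9, 1.83 and 0.388 CPM, and Cx3cr1, the fractalkine receptor, at 312, 398, 102 and 38.6.

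For Igf1, Selenop, Gpr34 and Cx3cr1, control and sham were the high libraries. F13a1, the coagulation factor XIII subunit of macrophages, was the member past 2-fold higher in CLP over sham, at 287 CPM in sham and 603 in CLP. Mrc1, Pf4 and Cd163 of the same list were higher in CLP plus stimulation than in CLP, by 1.60, 1.54 and 1.59 on the log2 scale. In CLP a single cell held 35.6% of the Mrc1 counts and 44.1% of the Cd163 counts.

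The M1 list, genes of inflammatory activation, was mixed in CLP and higher in CLP plus stimulation. In CLP over sham 6 of 17 tested members were past 2-fold higher and 7 lower, with a median of -0.13. Against sham, CLP plus stimulation had 11 of 19 past 2-fold higher and 3 lower, with a median of 1.15, which was 0.87 in cells of 20 to 80 class II UMIs. Over CLP, CLP plus stimulation had 7 of 18 past 2-fold higher and none lower, with a median of 0.62. All genes had shares of 9.16% higher and 17.2% lower in CLP over sham. For CLP plus stimulation they were 9.26% and 16.9% over sham, and 13.3% and 10% over CLP. The counts of list members describe the cells and support no direction, since the lists were made with results of these cells known.

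Il1b, the inflammatory cytokine interleukin 1 beta, lay at 288, 305, 748 and 1222 CPM. The log2 ratio was 1.30 (1.14 to 1.45) for CLP over sham and 0.71 (0.57 to 0.85) for CLP plus stimulation over CLP. Cells with an Il1b UMI after thinning made up 17.1%, 17.8%, 38.6% and 34.2%, against 0.403%, 0.410%, 0.645% and 4.08% of fibroblast-rule cells. Unthinned, the shares were 28.3%, 37.7%, 55.7% and 53.3%. The 2 septic libraries were thus apart from control and sham in level and in share of cells, while the shares of CLP (26.0 to 52.4) and CLP plus stimulation (31.3 to 37.1) overlapped.

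Tnf lay at 400, 611, 227 and 226 CPM, lower in both septic libraries than in sham, with log2 ratios of -1.42 (-1.70 to -1.17) and -1.44 (-1.52 to -1.35). Without cells bearing a neutrophil marker UMI the second ratio was -0.70, under 2-fold, with only 79 cells left in CLP plus stimulation and 716 in sham. Cd86, a costimulator of T cells, lay at 253, 267, 106 and 133 CPM, and Cxcl10 at 289, 1016, 324 and 229. Fpr2, a formyl peptide receptor, lay at 1.08, 2.62, 67.7 and 89.4 CPM. Cd38, an ectoenzyme that consumes NAD, lay at 21.2, 28.9, 89.6 and 312 CPM, and its ratio of CLP over sham went from 1.64 to 0.41 with cells thinned to 1000 UMIs. Within the same list, then, Il1b, Fpr2 and Cd38 were higher in both septic libraries than in sham and Tnf, Cd86 and Cxcl10 lower.

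Ccl5, a T cell chemokine, lay at 89.1, 256, 31.1 and 370 CPM, from 50, 113, 7 and 270 cells. Its ratio of CLP plus stimulation over CLP was 3.53 (2.89 to 4.36). CLP is the low library and CLP plus stimulation the high one, but in cells of 20 to 80 class II UMIs its ratio over sham turned from 0.53 to -0.65. Nos2, the nitric oxide synthase that defines M1 cells in textbooks, had no counts in control or sham and lay at 1.83 and 1.94 CPM in CLP and CLP plus stimulation, in 1 and 13 cells.

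The series title ties the stimulation to M2 macrophages. The M2 list, genes of that alternative state linked to repair, had 4 of 18 tested members past 2-fold higher in CLP than in sham and 8 lower, with a median of -0.70. CLP plus stimulation over CLP had 5 of 19 past 2-fold higher and 2 lower, with a median of 0.29, or 0.14 with the 2 genes at 0 counts in 1 library set to their bound. Over sham, 7 of 20 were past 2-fold higher and 8 lower, with a median of -0.22 and a mean of 0.46. The median stood at 0.02 when each cell was given the same weight and at -0.79 in cells of 20 to 80 class II UMIs per 10000, both settings added after seeing the data. Over all genes, 9.16% were past 2-fold higher and 17.2% lower in CLP than in sham. For CLP plus stimulation these shares were 13.3% and 10% over CLP, and 9.26% and 16.9% over sham. The 2 of 19 members lower over CLP lie near the share of all genes.

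Higher in CLP plus stimulation than in CLP were Mrc1, the mannose receptor, at 511, 489, 247 and 749 CPM, and Cd163, the haemoglobin scavenger receptor, at 112, 107, 108 and 326. Il4ra, the interleukin 4 receptor, lay at 68.7, 60.1, 196 and 293 CPM. Mgl2, a lectin typical of M2 cells, lay at 571, 711, 31.1 and 31.4 CPM, and its ratio of CLP plus stimulation over sham was -4.50 (-4.69 to -4.31). The stimulated library thus stood above sham for Mrc1, Cd163 and Il4ra and below it for Mgl2, while the interval of its ratio to CLP for Mgl2 spanned 0 (-0.02, -0.69 to 0.82).

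Ccl24, an eosinophil chemokine, lay at 124 and 86.1 CPM in control and sham, had no counts in CLP, and lay at 14.7 in CLP plus stimulation. Against the floor of 3 counts over the CLP cells it was at least 15.7-fold lower in CLP than in sham. Ccl17, a chemokine for type 2 T cells, had 1.43, 0, 1.83 and 36.0 CPM, in 3, 0, 1 and 111 cells. In CLP plus stimulation a single cell held 35.3% of the Ccl17 counts. Unthinned, 9.52% of the cells described and 13.4% of resident macrophages of that library had a Ccl17 UMI. After thinning these shares were 2.21% and 1.72%. Stab1 and Tgfb1, a scavenger receptor and a growth factor of the list, were past 2-fold lower in both septic libraries than in sham, at 267, 89.6 and 99.6 CPM and 175, 80.5 and 86.2 CPM in sham, CLP and CLP plus stimulation, except that Tgfb1 in CLP stood at -0.72 after thinning.

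Arg1, arginase 1, and Retnla had the largest ratios of CLP over sham in the list, and few cells held them. Arg1 lay at 2.69, 0.308, 347 and 38.2 CPM, in 9, 1, 12 and 40 cells, with 48.9% of the CLP counts in a single cell. Retnla lay at 1029 CPM in CLP, in 11 cells with 43.7% of counts in the top cell, and at 251 in CLP plus stimulation, in 90 cells. Thinned to 1000 UMIs per cell, the log2 ratio of Retnla for CLP over sham went from 2.72 to 0.45. Without cells bearing a neutrophil marker UMI, the ratio for CLP plus stimulation over sham went from 0.68 to -3.45. That setting left 79 cells in CLP plus stimulation and 716 in sham.

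**Figure D4:**
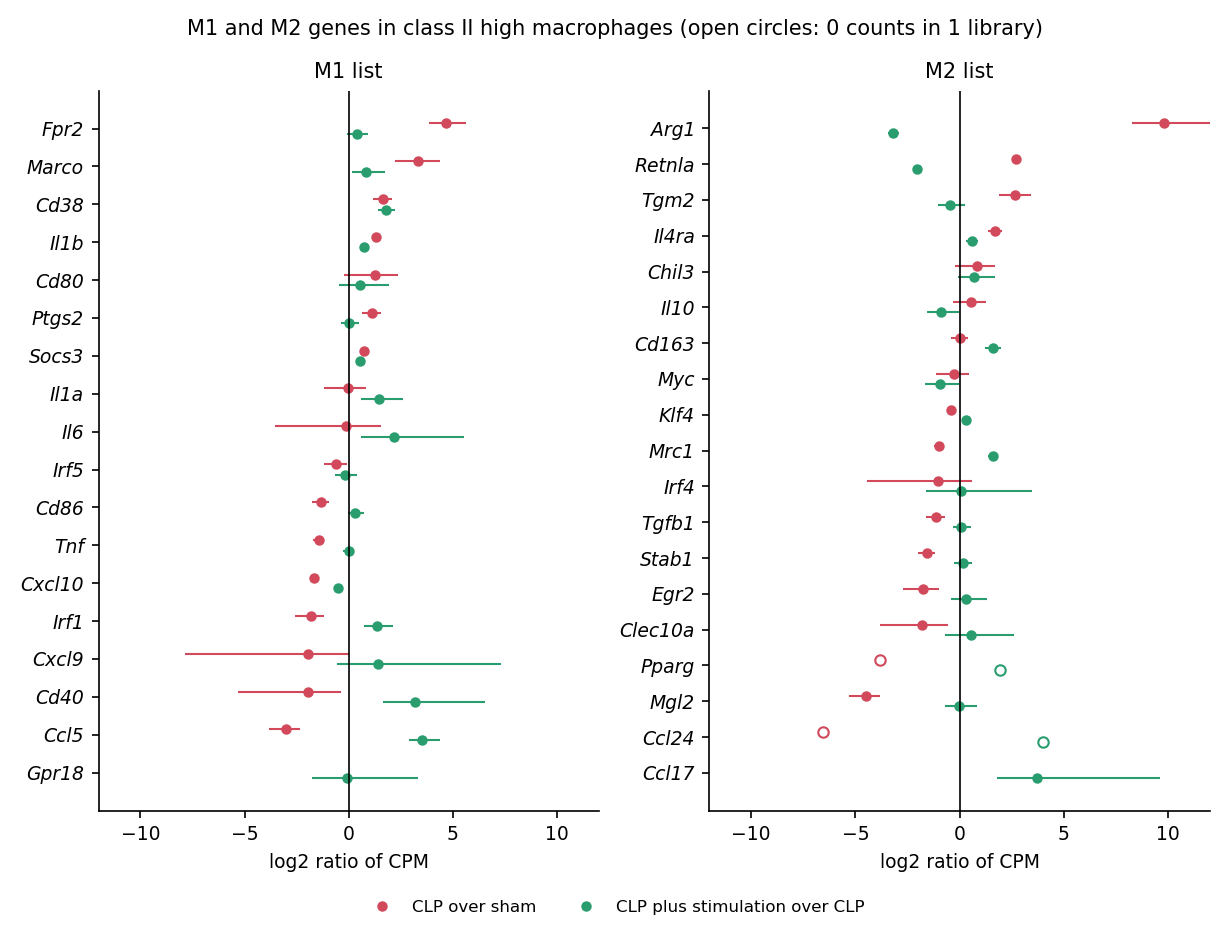
Log2 ratios of CPM for M1 genes (left) and M2 genes (right) with at least 20 counts, CLP over sham in red and CLP plus stimulation over CLP in green, with 95% counting intervals; open circles have 0 counts in 1 library and no interval. Fpr2, Marco, Cd38 and Il1b lie right of 0 in red, Ccl5, Cd40, Mrc1 and Cd163 right of 0 in green, and Arg1 and Retnla change sides between the comparisons, which share the CLP library.

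Interferon gamma response genes were lower in CLP, with 11 of 20 tested members past 2-fold lower than in sham, 1 higher and a median of -1.13, which was -0.51 after thinning. Counting intervals lay below 0 for 6 of them and above 0 for 1. Over CLP, CLP plus stimulation had 8 of 20 past 2-fold higher and none lower, with a median of 0.44, and intervals above 0 for 4 and below 0 for 1. In either comparison 4 of the genes had no counts in 1 library, and with these at their bound the medians were -0.81 and 0.09. All genes had 17.2% past 2-fold lower and 9.16% higher in the first comparison, and 10% and 13.3% in the second. Irf1, a transcription factor of the interferon gamma response, lay at 160, 131, 36.6 and 95.7 CPM. Icam1, an adhesion molecule, lay at 276, 243, 58.5 and 133. CLP is the lowest library for Irf1 and Icam1, and CLP plus stimulation lies between CLP and sham. Cd274, the checkpoint ligand PD-L1, was the member past 2-fold higher in CLP, at 4.84, 6.47, 36.6 and 35.3 CPM.

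Type I interferon response genes were mixed in CLP over sham, with 7 of 31 tested members past 2-fold higher and 4 lower and a median of 0.28. Over CLP, CLP plus stimulation had 9 of 30 past 2-fold lower and 2 higher, with a median of -0.69. The shares of all genes were 9.16% higher and 17.2% lower in CLP over sham, and 13.3% and 10% between the septic libraries. The 4 of 31 lower in CLP are a smaller share than that of all genes. Bst2, tetherin, which holds budding viruses, lay at 310, 440, 532 and 159 CPM, and Isg15 at 117, 287, 309 and 116. CLP plus stimulation was the lowest library for both. Ifnb1 had no counts in CLP, which is at least 20.8-fold lower than in sham against the floor of 3 counts over the CLP cells, and lay at 1.29 CPM in CLP plus stimulation.

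Cytokines and chemokines of inflammation did not move as a block. Of 20 tested in CLP over sham 7 were past 2-fold higher and 1 lower, with a median of 0.36, and of 22 tested in CLP plus stimulation over CLP 6 were higher and 3 lower. Among all genes 9.16% were higher and 17.2% lower in the first comparison, and 13.3% and 10% in the second. Cxcl2, a neutrophil chemokine, lay at 10872, 10326, 10574 and 24686 CPM, with a ratio of CLP plus stimulation over CLP of 1.22 (1.19 to 1.26). Ccl6 and Ccl9, chemokines of myeloid cells, lay at 307, 300, 1050 and 147 CPM and at 148, 170, 634 and 144 CPM. Cxcl2 thus peaked in CLP plus stimulation, and Ccl6 and Ccl9 in CLP.

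Receptors for uptake of particles went in opposite directions. Of 23 tested genes of efferocytosis and phagocytosis, 5 were past 2-fold higher and 8 lower in CLP than in sham, with a median of -0.54. The shares of all genes there were 9.16% higher and 17.2% lower. Axl, a receptor for dying cells through the bridging protein Gas6, lay at 88.2, 109, 16.5 and 16.6 CPM, and Gas6 itself at 159, 149, 11.0 and 9.57. Fcgr4, an activating antibody receptor, lay at 40.7, 71.0, 322 and 306, and Fcgr2b, the inhibitory one, at 221, 272, 549 and 877. Mertk, a receptor related to Axl, lay at 36.8, 22.8, 14.6 and 62.0 CPM, highest in CLP plus stimulation.

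Genes of sugar breakdown and hypoxia were higher in CLP, with 20 of 23 above sham, 12 past 2-fold, 1 past 2-fold lower and a median of 1.35. The median was 0.83 without the marked doublets and 0.67 after thinning. Of all genes, 9.16% were past 2-fold higher in CLP than in sham and 17.2% lower. Ldha, lactate dehydrogenase, lay at 147, 139, 506 and 180 CPM, Pgk1, a glycolytic kinase, at 43.8, 51.3, 225 and 109, and Slc16a3, a lactate exporter, at 7.17, 7.70, 85.9 and 14.9. Between the septic libraries 18 of 23 sugar breakdown and hypoxia genes were lower in CLP plus stimulation, 6 past 2-fold, with a median of -0.58. For all genes the share past 2-fold lower was 10%. Hif1a, the hypoxia factor, was higher in CLP plus stimulation, at 48.8, 35.4, 126 and 243 CPM.

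Genes that stood out in CLP plus stimulation were of mixed kinds. Ctla2a, a cathepsin inhibitor, lay at 40.2, 21.6, 23.8 and 862 CPM, with a ratio of CLP plus stimulation over CLP of 5.13 (4.40 to 6.09) on the log2 scale. Csf3, the granulocyte growth factor, lay at 0.359, 0.308, 20.1 and 147 CPM. Nlrp3, an inflammasome sensor, lay at 192, 198, 274 and 1022 CPM, and Il1rn, the interleukin 1 receptor antagonist, at 16.7, 22.5, 205 and 499. CLP plus stimulation is the highest library for all 4 genes.

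Glucocorticoid response genes were higher in CLP plus stimulation than in sham in 15 of 18 cases, 11 past 2-fold, with a median of 1.27, which was 0.70 after thinning. For all genes the share past 2-fold higher was 9.26%. Fkbp5, a chaperone induced by the glucocorticoid receptor, lay at 4.66, 8.16, 67.7 and 171 CPM, and Tsc22d3, an anti-inflammatory target of it, at 203, 187, 199 and 447. Low in CLP plus stimulation were Aif1, an actin-binding protein of macrophages, at 546, 734, 662 and 60 CPM, and the chemokine Ccl12, at 710, 1593, 934 and 85.3. For these CLP plus stimulation is the lowest library by more than 2-fold.

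Beside class II low macrophages of the same library, the cells held more Cd74, H2-DMa, Il1b and Ccr2 in each library and less Fabp4 and Maf. Cells were divided on class II level, so these ratios describe the division. Over 9479 genes tested in all 4 libraries, 10 (0.105%) were past 2-fold higher in each library and 12 (0.127%) lower. Cd74 was above the class II low cells by log2 4.15, 3.84, 3.87 and 2.15, and H2-DMa by 2.15, 2.17, 2.82 and 1.56. CLP plus stimulation had the smallest gap in both. Il1b was above them by 1.48, 2.17, 0.82 and 0.53, and Plbd1, a lysosomal lipase-like protein, by 2.35, 1.88, 0.65 and 0.99.

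Lower than in class II low cells in each library were Fabp4, a fatty acid carrier, at -1.60, -1.70, -1.16 and -0.51, and Maf, a transcription factor of resident macrophages, at -0.74, -0.53, -0.49 and -0.45. Class II low cells had medians of 1194, 2029, 5709 and 5624 UMIs, fewer than the cells described in each library. Cardiomyocyte markers were higher in class II low cells in 3 libraries, at 1239, 1173, 418 and 128 CPM against 728, 451, 221 and 158. Endothelial markers were higher in class II low cells in each library, at 286, 131, 82.6 and 51.5 CPM against 94.9, 57.9, 51.2 and 43.6. The part of either marker set in these ratios, that of Fabp4 included, was not tested.

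Against resident macrophages, 30 genes (0.362% of 8281) were past 2-fold higher in each library and 28 (0.338%) lower. Il1b was higher by log2 1.89, 2.18, 2.07 and 1.69, and Cd72, a lectin receptor of immune cells, by 1.74, 1.54, 2.39 and 1.98. Lower were Fcna, a ficolin of resident macrophages, at -3.57, -3.82, -4.45 and -3.01, and Ltc4s, leukotriene C4 synthase, at -2.41, -2.84, -3.74 and -2.58. Ccr2 was higher in the cells than in residents by 1.27, 1.47, 4.98 and 2.77, and higher than in class II low cells by 2.80, 3.80, 3.82 and 1.82.

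**Figure D5:**
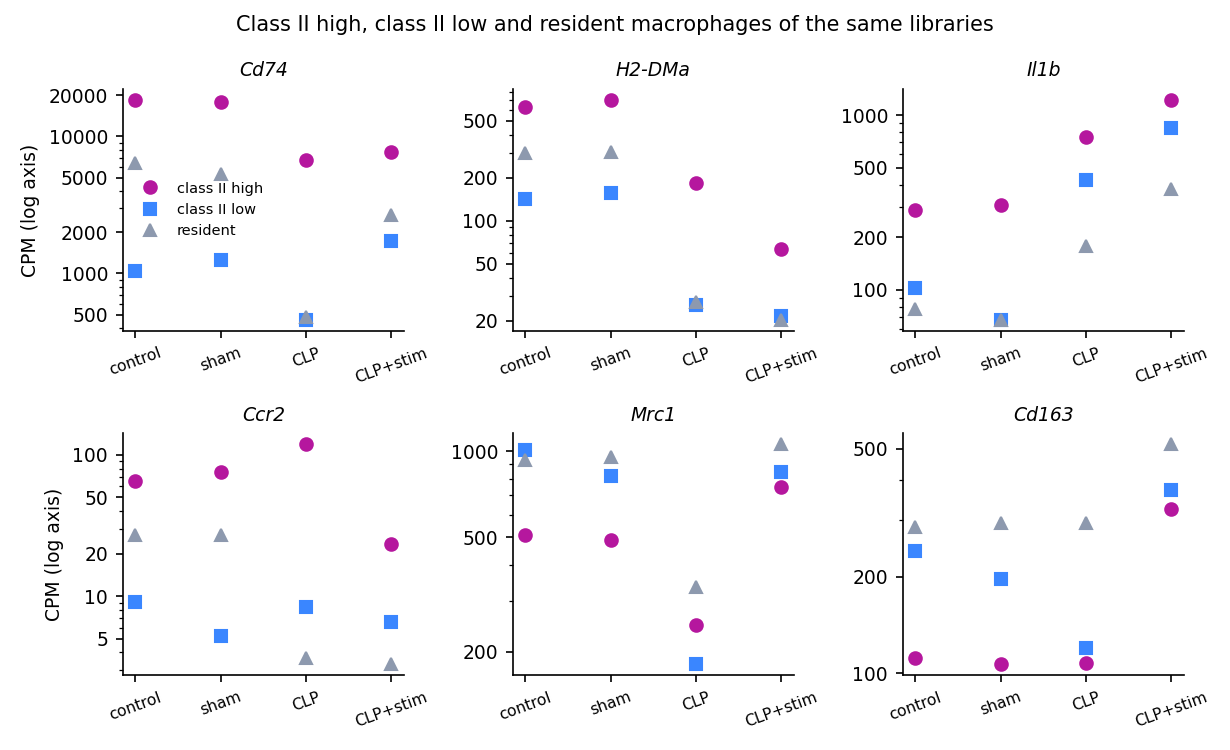
CPM on log axes for 6 genes in class II high, class II low and resident macrophages of the 4 libraries, 1 point per library and cell set. Ccr2, Cd74, H2-DMa and Il1b are highest in class II high cells of each library; Cd163 is highest in residents of each, and Mrc1 in residents of sham, CLP and CLP plus stimulation.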

How the data were processed

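The authors deposited, per the file headers, gene-by-barcode UMI counts from Cell Ranger 5.0.0 for 4 libraries of 32285 genes; the submitters' processing notes name STAR and mm10. Barcodes with at least 500 UMIs, 200 genes and at most 20% mitochondrial UMIs were kept. The members and gene lists were chosen with earlier results of these data known. Counts were summed over members per library and divided by their total. Log2 ratios used a prior of 0.5 counts, with exact conditional binomial 95% intervals; shares have Clopper-Pearson and levels Poisson intervals. Fibroblast-rule cells had at least 60 Col1a2, Dcn and Col3a1 UMIs per 10000. The rule for named genes took the 12 highest and 12 lowest ratios per comparison among genes with 50 CPM and 20 counts whose interval excludes 0. Against other macrophages it took the 10 with the highest minimum and the 10 with the lowest maximum ratio over the 4 libraries. Those needed 50 CPM in either cell set and 20 counts over both in each library, without a limit on the interval. Markers of other cell classes were passed over. The rule also took all M1, M2 and class II genes, and the 2 highest and 2 lowest of the other lists. Not every such gene is printed, and genes chosen after their values were seen are among the list examples. Scrublet in scanpy 1.11.5 marked 0.8% of barcodes per 1000, that is 12.8%, 7.63%, 6.99% and 7.07% per library in the order control to CLP plus stimulation. Calculations used Python 3.11.15 and edgeR 4.0.16 (scaling factors only), and were checked on simulated data. Alternatives changed the rule, count filters, prior, scaling, doublets, depth, and cells with markers of other classes. Gene symbols are those of the deposited files; RefSeq promoters are of GRCm38.p6.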

Additional observations from a re-analysis of the deposited data

How the results depend on the processing

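The order of the 4 libraries in the share of macrophages outside residents was sham, control, CLP plus stimulation, CLP under every alternative tried. With a class II minimum of 40 per 10000 the shares of kept barcodes, in the order control, sham, CLP, CLP plus stimulation, were 9.64%, 12.3%, 0.288% and 7.04%, and those of macrophages outside residents 53.7%, 61.7%, 1.78% and 23.5%. Cells thinned to 1000 UMIs gave 16.3%, 21.9%, 1.53% and 18.5% of barcodes and 62.8%, 64.4%, 6.65% and 47.7% of those macrophages. Cells with no resident marker gave 6.74% in control, 8.49% in sham and 9.89% in CLP plus stimulation of barcodes, and 65.7%, 71.7% and 48.3% of macrophages. A C1q minimum of 40 gave 11.2% of barcodes in CLP plus stimulation, and 61.5%, 70.3% and 48.9% of macrophages in control, sham and CLP plus stimulation. Leaving doublets out gave 11.1% of barcodes in control. A mitochondrial maximum of 10% gave 64.5% and 71.8% of macrophages in control and sham.

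Counts of genes past 2-fold moved with the count filter and with 5 CPM added. With at least 50 counts, 76 were higher and 129 lower in sham over control, 558 higher in CLP over sham and 548 lower in CLP plus stimulation over CLP. With at least 1 count they were 1784 and 2282 in sham over control, 4235 higher in CLP over sham, 5118 lower in CLP plus stimulation over CLP, and 2628 higher and 4329 lower in CLP plus stimulation over sham. With 5 CPM added before the ratio, higher and lower counts were 22 and 44 in sham over control, 442 and 969 in CLP over sham, 643 and 400 in CLP plus stimulation over CLP, and 517 and 750 in CLP plus stimulation over sham. Thinning gave 147 lower in sham over control, 604 lower in CLP plus stimulation over CLP and 1256 lower in CLP plus stimulation over sham. Cells of 20 to 80 class II UMIs gave 390 higher and 1000 lower in CLP over sham. Equal weight per cell gave 328 higher, and leaving doublets out 167 lower, in sham over control. Without cells holding markers of other classes 966 were lower in CLP plus stimulation over sham.

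Among list medians on the log2 scale, M2 in sham over control was 0.10 after thinning, and class II pathway genes in CLP plus stimulation over CLP stood at -0.88 with at least 1 count. In CLP plus stimulation over sham the class II pathway stood at 0.00 without cells holding markers of other classes and -0.17 in the 20 to 80 range, M1 at 1.48 and 0.87, and M2 at -0.53 and -0.79. M2 there stood at 0.02 with equal weight per cell and -0.63 without neutrophil markers. Among values past 2-fold, besides the class II pathway at 0.00, those that turned were Il10 in sham over control (-1.11, without markers of other classes), T and NK markers in CLP over sham (0.02, equal weight), Pparg in CLP over sham (0.27, thinned), the resident list (-0.29, thinned), the neutrophil list (0.69, doublets left out), Ccl24 (-0.05, thinned) and Slfn4 (0.24, doublets left out) in CLP plus stimulation over CLP. In CLP plus stimulation over sham B cell markers (0.26, at least 1 count), Chil3 (-0.12, class II minimum 40), Gpr18 (-0.16, 20 to 80 range) and H2-DMb2 (0.49, without neutrophil markers) turned. The cause was not tested. Of 180 named gene values past 2-fold, 7 turned and 49 fell under 2-fold in some setting. The cells without markers of other classes, or of neutrophils, were too few in CLP (2 and 4 left, minimum 20), so those settings were not run for its comparisons. In CLP plus stimulation the same settings left 57 and 79 cells, and in sham 318 and 716, so values under them rest on few cells. The 20 to 80 range, equal weights, neutrophil removal and recurring barcodes were added after seeing the data. Depth limits CLP most, with 61 cells and 546914 UMIs, and a single library per group leaves the spread between animals unmeasured.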
